A study of Mus musculus with 6 samples.

Results

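Serine and one-carbon folate metabolism was read from 9 genes, Phgdh, Psat1, Psph, Shmt1, Shmt2, Mthfd1, Mthfd1l, Mthfd2 and Aldh1l2, in cultured mouse BMDC, which are dendritic cells derived from bone marrow. Their rows were taken by symbol from a table of 55487 genes, and each symbol named 1 row. The choice of the genes was made with earlier results of these data known. The comparison asks whether their transcripts differ between BMDC labelled NanoCa, a lipid nanoparticle with a calcium crystal, and BMDC labelled Mock. The labels give 3 samples per group, from female mice of 4 to 8 weeks with no strain named, all with the same batch date and grown in DMEM with serum. NanoCa was used at 100 μM and the time of exposure is not given. The treatment label of the Mock samples is no treatment, but the same protocol stands on them and their descriptions name columns containing both Mock and NanoCa, so what Mock cells were given is not settled here. The treatment label was followed. Replicate 3 was not an independent library, as its column equalled a constant (1.0011 in NanoCa, 1.001876 in Mock) times the mean of replicates 1 and 2 of its group, so 4 libraries were used, 2 per group. Whether the replicates were separate animals or cultures is not labelled, so the p-values reflect only library-to-library spread, which may be technical.

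Cells make serine from the glycolytic intermediate 3-phosphoglycerate in a chain of PHGDH, PSAT1 and PSPH. Serine hydroxymethyltransferases then split serine into glycine and a one-carbon unit carried by tetrahydrofolate, SHMT1 in the cytosol and SHMT2 in mitochondria. In mitochondria MTHFD2 oxidises the unit and MTHFD1L releases it as formate, which leaves for the cytosol, where MTHFD1 makes it available for purine and thymidylate synthesis. ALDH1L2 oxidises the mitochondrial formyl unit to carbon dioxide and yields NADPH. The serine synthesis genes and the mitochondrial arm are known targets of the stress transcription factor ATF4, and MTHFD2 is known for its rise in dividing and activated immune cells.

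Library totals were 22793565 to 31131990 reads, and reads behind each value could be recovered from the steps of the FPKM values (reads per kilobase of gene and per library size). Libraries did not follow their sex label. Xist, the RNA of the inactive X chromosome, was at 33.5 and 33.3 FPKM in NanoCa and had 1 read in each Mock library, while each library also had reads of the Y-linked genes Kdm5d, Uty, Ddx3y and Eif2s3y, whose NanoCa level was 29.4% to 40.4% of Mock. The difference is between all libraries of one group and all of the other, so it cannot be told apart from the treatment, and its part in the results below was not tested. Markers of cell types were counted by the test given below, which called 21.7% of all tested genes higher and 49.7% lower in NanoCa. Of 8 dendritic cell markers 6 were tested, 1 higher and 5 lower. Their summed level was 1260 and 1330 FPKM in NanoCa against 1980 and 1960 in Mock for all 8. Itgax, Cd74 and H2-Ab1 were high in every library, while Flt3 and Zbtb46, which define conventional dendritic cells, were at 0.182 to 0.385 and 0.495 to 0.635 FPKM. Of 7 macrophage and monocyte markers, all tested, 5 were higher and 2 lower (summed 2780 and 2920 FPKM against 2020 and 2030). Of 8 neutrophil markers 5 were tested and all 5 were lower (50.7 and 62.8 against 227 and 415). Of 6 mast cell and basophil markers 3 were tested and all 3 were lower (2.64 and 2.67 against 12.3 and 20.0). Of 5 fibroblast markers 4 were tested and all 4 were higher (40.3 and 38.6 against 7.51 and 7.70). Among these, Ngp, Ltf, Elane, Cpa3 and Mcpt8 were high enough to be tested only through Mock, and Col3a1 only through NanoCa. Summed markers of T, B, NK and erythroid cells were under 1 FPKM in every library, with Ncr1 and Prf1 at 0. In bulk RNA, fewer cells of a type and less RNA per cell cannot be told apart. The part of these markers in the results was not tested.

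Of the 9 genes, 7 had a mean of at least 1 FPKM over the 4 libraries and were tested among 11116 genes. Of these 7, 6 were higher in NanoCa (Phgdh, Psat1, Psph, Shmt2, Mthfd1l and Mthfd2) and Mthfd1 was lower, with limma on log2(FPKM + 1) and Benjamini-Hochberg adjustment at 0.05. Across all genes tested the same rule called 21.7% higher and 49.7% lower. Each of the 7 was at 3.19 FPKM or more in every library, so none was tested only through the group where it was high. With median-of-ratios scaling, which moves the median of all genes to about 0, the same 7 calls were made, where 32.9% of genes were higher and 32.8% lower. The median log2 fold change of the 7 was 0.37, where that of all tested genes was -0.17. The 2 genes under the limit, Shmt1 and Aldh1l2, had the largest relative differences of the set, in opposite directions. Neither group's libraries overlapped the other's for any of the 9 genes. Among all tested genes NanoCa lay wholly above Mock for 27.4% and wholly below it for 58.9%. Together the 9 genes had 5255 and 5163 reads in the NanoCa libraries and 4181 and 3780 in the deeper Mock libraries, and Mthfd2 supplied 47.2% and 47.1% of them in NanoCa and 28.6% and 27.8% in Mock.

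**Figure D1:**
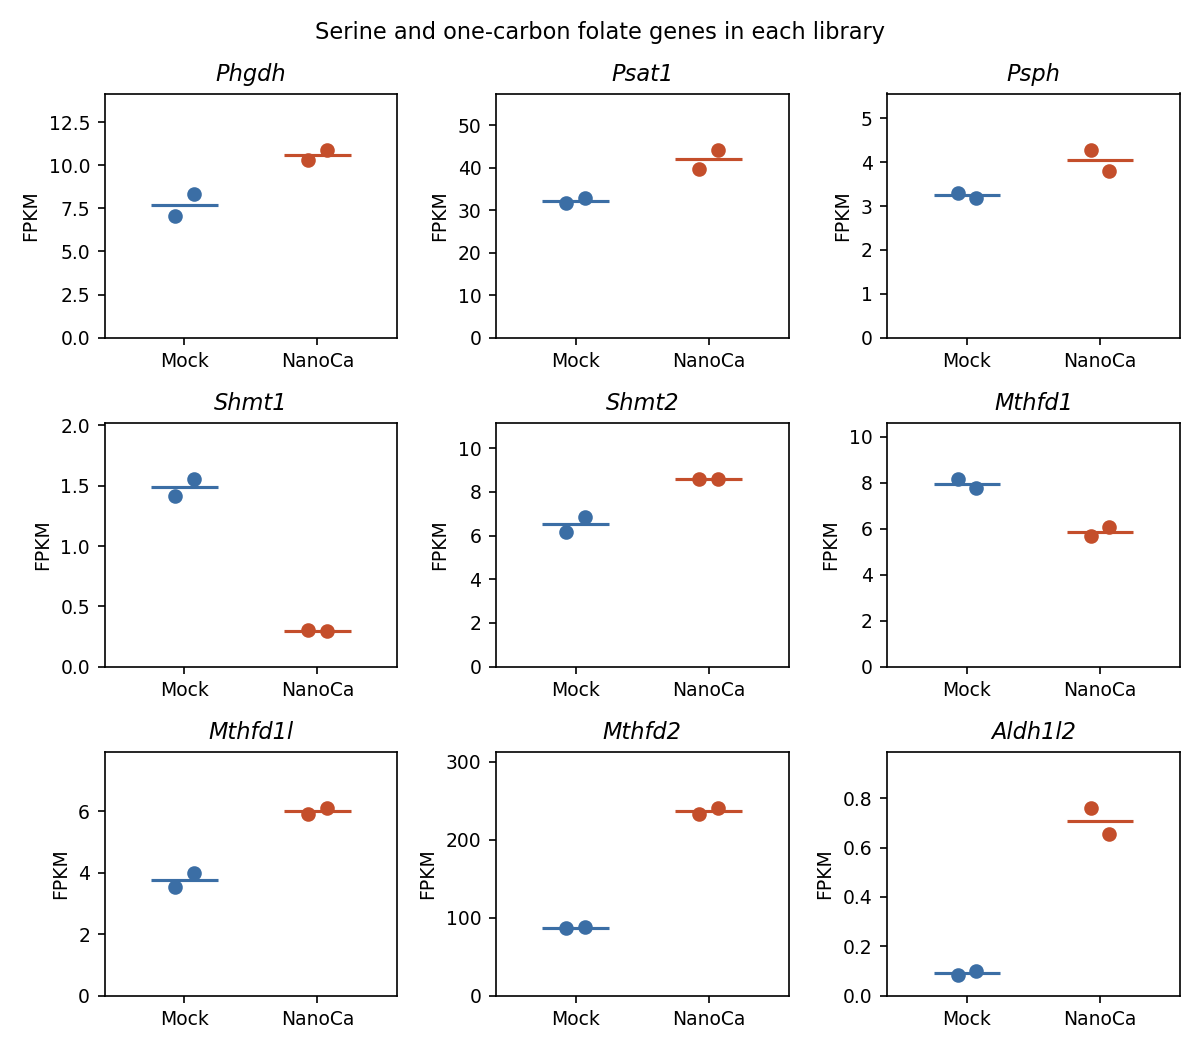
FPKM as deposited (y axis, from 0, on its own scale for each gene) of the 9 genes in the 4 libraries, with points for libraries and lines for group means (n = 2 per group). The panels of the other 7 genes have both NanoCa points above both Mock points, and those of Shmt1 and Mthfd1 have them below.

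The serine synthesis chain rose at every step, by 1.38 times or less. Phgdh (ENSMUSG00000053398, chromosome 3), the first and committed enzyme, was at 10.3 and 10.9 FPKM in NanoCa and 7.06 and 8.34 in Mock. Both NanoCa libraries lay above both Mock libraries, and the Mock libraries differed more from each other than the NanoCa ones did. Phgdh rose by a log2 fold change of 0.42 (SE 0.080, adjusted p = 0.00384, n = 2 per group, limma), on 939 reads in NanoCa and 842 in the deeper Mock libraries. Psat1 (ENSMUSG00000024640, chromosome 19), the aminotransferase of the next step, was at 39.8 and 44.2 FPKM in NanoCa and 31.7 and 32.9 in Mock. It differed by a log2 fold change of 0.37 (SE 0.059, adjusted p = 0.00181). Psph (ENSMUSG00000029446, chromosome 5), the phosphatase that releases serine, was at 4.28 and 3.80 FPKM in NanoCa and 3.30 and 3.19 in Mock. Its difference was the smallest of the chain (log2 fold change 0.25, SE 0.073, adjusted p = 0.0235). The call for Psph was lost with no filter on low values, without NanoCa replicate 1 (log2 fold change 0.18) and without Mock replicate 2 (0.23). In the settings with 2 libraries per group its adjusted p lay between 0.00242 (limma, quantile normalization) and 0.0836 (limma, no filter). Psph overlaps Cct6a, a chaperonin subunit gene on the opposite strand with 2843 to 3619 reads per library against 149 to 178 for Psph. Whether the counting used strand is not given, so reads of the overlapping stretch cannot be told apart. A processed copy, Phgdh-ps1, was listed at 0 in every library.

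Promoters (250 bases before to 50 after the annotated start, RefSeq, GRCm38.p6) were found for 8 of the 9 genes, all but Aldh1l2, as 9 start sites because Psat1 has 2. They were searched on both strands for an ATF4 element (TGATGNAA), an E-box (CACGTG) and an antioxidant response element (TGACNNNGC). The ATF4 element and the E-box had no match in the 9 windows, where 3.97% and 7.15% of all 32851 promoters have one. The antioxidant response element matched in 2 windows, of Phgdh and Psph, and in 12.4% of all promoters. These windows are shown because they belong to the first and last enzymes of the chain that rose, with the match in capitals. It lies on the strand opposite to the gene, and its first printed base is at -53 in Phgdh and at 5 after the start in Psph. Phgdh is at chr3:98339920-98340219 and Psph at chr5:129787204-129787503, both on the minus strand.
Phgdh: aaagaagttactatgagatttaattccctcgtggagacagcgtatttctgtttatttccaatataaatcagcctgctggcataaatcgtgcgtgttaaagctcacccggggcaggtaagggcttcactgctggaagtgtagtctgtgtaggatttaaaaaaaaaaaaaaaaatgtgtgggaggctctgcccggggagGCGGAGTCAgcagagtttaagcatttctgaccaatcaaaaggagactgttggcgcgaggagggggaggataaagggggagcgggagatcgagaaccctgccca
Psph: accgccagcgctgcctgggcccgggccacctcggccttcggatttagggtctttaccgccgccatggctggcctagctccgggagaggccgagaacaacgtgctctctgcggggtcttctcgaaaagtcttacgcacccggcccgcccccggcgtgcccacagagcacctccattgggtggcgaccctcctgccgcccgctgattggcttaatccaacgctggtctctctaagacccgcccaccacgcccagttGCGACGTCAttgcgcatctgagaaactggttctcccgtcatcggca
A match describes letters in the window and is not evidence of binding. With so few short windows and motifs this rare in promoters, the lack of a match is not evidence against binding either.

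The paired serine hydroxymethyltransferases moved in opposite directions. Shmt2 (ENSMUSG00000025403, chromosome 10), the mitochondrial enzyme, was at 8.59 and 8.57 FPKM in NanoCa and 6.16 and 6.87 in Mock. The NanoCa libraries were nearly equal and both above Mock, and Shmt2 rose by 0.35 on the log2 scale (SE 0.063, adjusted p = 0.00288). Its reads were 472 and 447 in NanoCa and 439 and 424 in the deeper Mock libraries. Shmt2 overlaps Ndufa4l2 on the opposite strand, which had 30 reads in each NanoCa library and 2 and 4 in Mock. Shmt1 (ENSMUSG00000020534, chromosome 11), the cytosolic enzyme, was at 0.306 and 0.292 FPKM in NanoCa and 1.42 and 1.56 in Mock. The libraries had 21 and 19 reads of it against 126 and 120, and the Mock rate was 4.95 times that of NanoCa (exact 95% interval 3.53 to 7.10). Such intervals cover counting error only. With no filter on low values the log2 fold change of Shmt1 on log2(FPKM + 1) was -0.94 (SE 0.072, adjusted p = 0.0026), where 23.9% of 23929 genes were lower. With limma-voom on recovered reads of genes with at least 10 reads, it was -2.28 (SE 0.25, adjusted p = 2.65e-07), where 39.9% of 16613 genes were lower. The first scale understates the change of a gene at this level. Shmt1 overlaps Smcr8, an autophagy regulator on the opposite strand with 4299 to 5379 reads per library.

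The ratio of Shmt2 to Shmt1 within a library, which does not depend on the scaling of the library, was 28.1 and 29.4 in NanoCa and 4.35 and 4.41 in Mock. The NanoCa mean was thus 6.56 times the Mock mean, and the libraries of a group lay close together. The ratios are given as a description and were not tested, and an exact permutation test of 2 libraries against 2 cannot go below p = 0.333.

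Mthfd2 (ENSMUSG00000005667, chromosome 6), the mitochondrial methylenetetrahydrofolate dehydrogenase and cyclohydrolase, had the largest change of the tested members. It was at 234 and 241 FPKM in NanoCa and 86.6 and 87.9 in Mock. The libraries of each group agreed to within a few percent, and NanoCa stood at 2.72 times Mock (log2 fold change 1.43, SE 0.037, adjusted p = 1.73e-06). It rested on 4915 reads in NanoCa and 2245 in Mock. Of all tested genes, 2.75% had a larger positive change. Its window (chr6:83317555-83317854, minus strand, GRCm38.p6) is shown because it is the member that rose most among those tested, and it held none of the 3 motifs.
Mthfd2: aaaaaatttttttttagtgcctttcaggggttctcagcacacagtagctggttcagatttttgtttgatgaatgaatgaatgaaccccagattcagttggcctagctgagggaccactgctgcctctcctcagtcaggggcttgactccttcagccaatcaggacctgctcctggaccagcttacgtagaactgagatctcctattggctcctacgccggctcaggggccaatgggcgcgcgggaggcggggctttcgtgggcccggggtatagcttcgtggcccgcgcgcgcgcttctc
Its mitochondrial paralog Mthfd2l was low, at 2.12 and 1.83 FPKM in NanoCa and 1.62 and 1.85 in Mock. The groups overlapped (log2 fold change 0.12, SE 0.093, adjusted p = 0.284). The deposited FPKM of Mthfd2 was divided by a short transcript length (443 bases), so its ratios to other genes were taken after rescaling to its longest coding transcript (2085 bases), at 49.6 and 51.2 FPKM in NanoCa and 18.4 and 18.7 in Mock. On that scale the ratio of Mthfd2 to Mthfd2l was 23.4 and 28.0 in NanoCa and 11.4 and 10.1 in Mock.

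Mthfd1l (ENSMUSG00000040675, chromosome 10), the mitochondrial formyltetrahydrofolate synthetase that makes formate, was at 5.89 and 6.10 FPKM in NanoCa and 3.55 and 3.97 in Mock. It rose by a log2 fold change of 0.56 (SE 0.068, adjusted p = 0.000566), on 1034 and 802 reads. Mthfd1 (ENSMUSG00000021048, chromosome 12), the trifunctional cytosolic enzyme that takes up formate, went the other way, at 5.67 and 6.06 FPKM in NanoCa and 8.17 and 7.76 in Mock. It fell by 0.38 on the log2 scale (SE 0.059, adjusted p = 0.0015), or to 73.7% of Mock. All tested genes had a median of -0.17, and median-of-ratios scaling moved that median by 0.16. With that scaling the fall of Mthfd1 was smaller (-0.22, adjusted p = 0.0166), and with quantile normalization it was -0.19 (adjusted p = 0.0331). On the rescaled length, the ratio of Mthfd2 to Mthfd1 was 8.75 and 8.44 in NanoCa and 2.25 and 2.41 in Mock, and that of Mthfd1l to Mthfd1 was 1.04 and 1.01 against 0.434 and 0.512. Both ratios were higher in both NanoCa libraries than in either Mock library.

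Aldh1l2 (ENSMUSG00000020256, chromosome 10), the mitochondrial formyltetrahydrofolate dehydrogenase, was at 0.761 and 0.655 FPKM in NanoCa and 0.0853 and 0.0984 in Mock. Its reads were 110 and 90 against 16 and 16, a rate 7.76 times that of Mock (exact 95% interval 5.33 to 11.7). It was the lowest of the 9 genes in Mock and passed Shmt1 in NanoCa. With no filter its log2 fold change was 0.65 (SE 0.054, adjusted p = 0.00307), where 11.6% of genes were higher. With limma-voom on genes of at least 10 reads it was 2.92 (SE 0.28, adjusted p = 4.74e-08), where 20.0% were higher. D10Wsu102e overlaps it on the opposite strand. Its cytosolic counterpart Aldh1l1 fell, from 61.4 and 57.8 FPKM in Mock to 40.1 and 43.5 in NanoCa (log2 fold change -0.50, SE 0.055, adjusted p = 0.000339). The deposited FPKM of Aldh1l1 was likewise divided by 400 bases, where its longest coding transcript has 4175, and on the latter it was at 3.84 and 4.17 FPKM in NanoCa and 5.89 and 5.54 in Mock. On that scale the ratio of Aldh1l2 to Aldh1l1 was 0.198 and 0.157 in NanoCa and 0.0145 and 0.0178 in Mock. Of the 3 mitochondrial and cytosolic gene pairs Shmt2 and Shmt1, Mthfd1l and Mthfd1, and Aldh1l2 and Aldh1l1, each had the mitochondrial gene higher and the cytosolic gene lower in NanoCa.

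**Figure D2:**
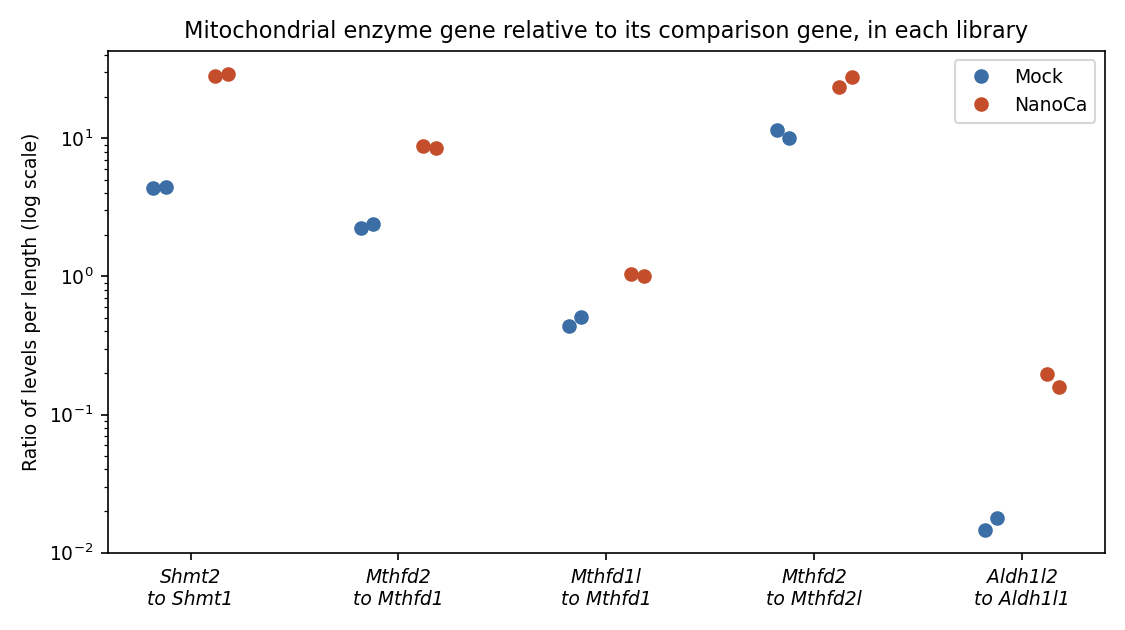
Ratio of levels per length (y axis, log scale) of a mitochondrial enzyme gene to its comparison gene in each of the 4 libraries, NanoCa and Mock, with 1 point per library. All comparison genes are cytosolic apart from Mthfd2l. In each of the 5 ratios both NanoCa points lie above both Mock points, from 2.16-fold for Mthfd1l to Mthfd1 to 11.0-fold for Aldh1l2 to Aldh1l1.

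**Figure D3:**
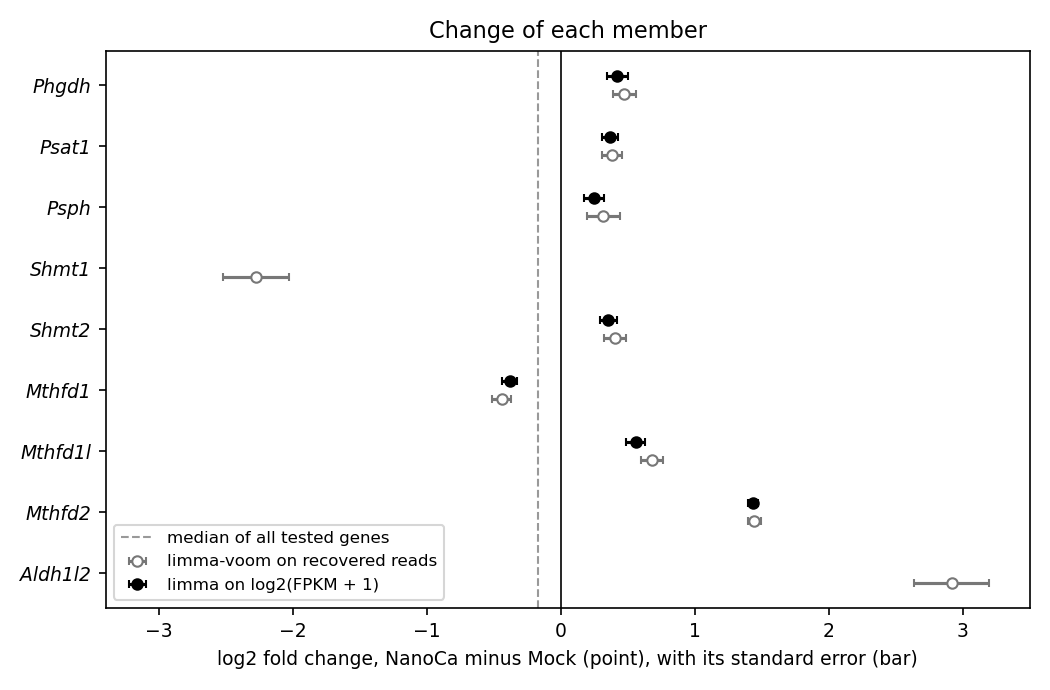
Log2 fold change (x axis, NanoCa minus Mock) with its standard error for each gene, filled for limma on log2(FPKM + 1) and open for limma-voom on recovered reads of genes with at least 10 reads. Shmt1 and Aldh1l2 have only the open point, at -2.28 and 2.92, and the dashed line marks the median of all tested genes, -0.17.

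Levels between the genes depend on the length that the authors divided by. For 7 of the 9 genes the recovered length was that of the longest annotated protein-coding transcript (GENCODE M21). The exceptions were Mthfd2, as above, and Psat1, with 588 bases where the longest has 2617. Which exons the reads were counted over is not given. Per length of the longest coding transcript, Mthfd2 came to 50.4 ± 1.11 FPKM in NanoCa (SD, n = 2) and 18.5 ± 0.183 in Mock, and was still the most abundant member in both groups. Psat1 came to 9.44 ± 0.711 and 7.26 ± 0.195 FPKM and moved from the second place to the third in NanoCa and to the fourth in Mock. In NanoCa the order on this scale was Mthfd2, Phgdh (10.6 ± 0.400), Psat1, Shmt2 (8.58 ± 0.0194), Mthfd1l (6.0 ± 0.152), Mthfd1 (5.87 ± 0.278), Psph (4.04 ± 0.342), Aldh1l2 (0.708 ± 0.0747) and Shmt1 (0.299 ± 0.0103). Mthfd1l and Mthfd1 did not differ beyond their spread there. In Mock, Mthfd1 (7.96 ± 0.291) came after Mthfd2, and Phgdh (7.70 ± 0.908), Psat1 and Shmt2 (6.51 ± 0.499) came next. In Mock both libraries of Mthfd1 lay above both of Psat1, and those of Phgdh overlapped both genes, so the place of Phgdh next to them is not settled. Mthfd1l (3.76 ± 0.301), Psph (3.24 ± 0.0792), Shmt1 (1.49 ± 0.0993) and Aldh1l2 (0.0918 ± 0.00929) followed. The length does not change the ratio between groups for a gene.

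**Figure D4:**
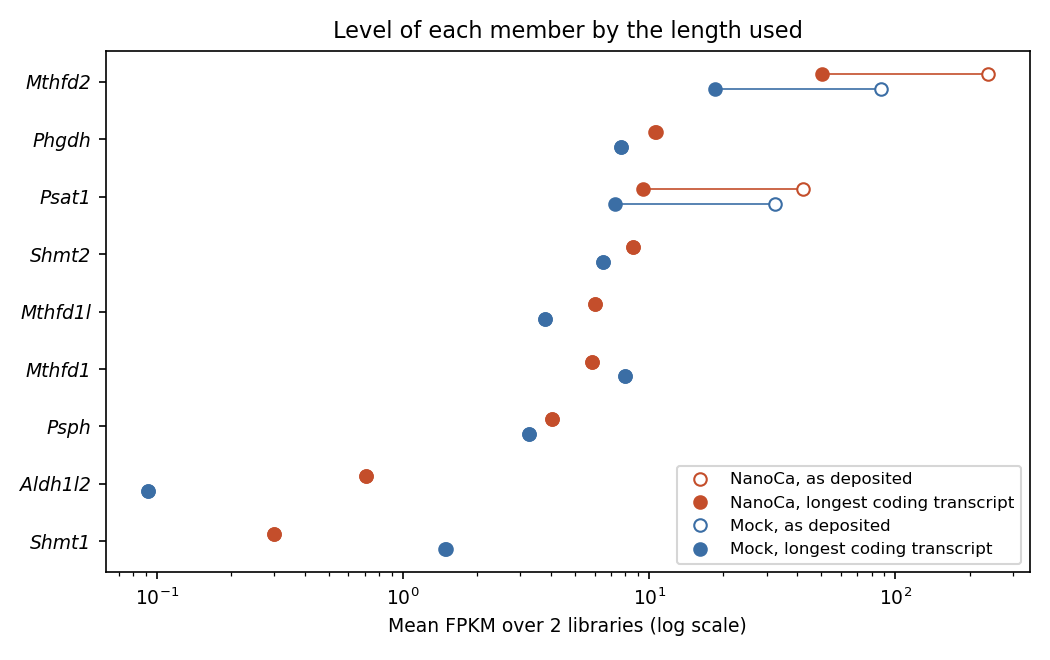
Mean FPKM over 2 libraries (x axis, log scale) of each gene in NanoCa and Mock, as deposited (open) and per length of the longest annotated coding transcript (filled). The points coincide for 7 genes. Mthfd2 falls from 237 to 50.4 in NanoCa and Psat1 from 42.0 to 9.44.

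Other genes of the pathway were read from lists. Of 27 other folate and one-carbon genes 22 were tested, with a median log2 fold change of -0.14. Of these 4 were higher, 11 lower and 7 not past the test. With median-of-ratios scaling the split was 7 higher and 8 lower. Among all tested genes 21.7% were higher and 49.7% lower, or 32.9% and 32.8% with that scaling. The counts of this list lie near those shares, which also apply to the lists that follow. Folr2, a folate receptor of macrophages, rose from 0.0975 to 4.67 FPKM (log2 fold change 2.37, adjusted p = 5.07e-06), on 263 reads against 7. Slc46a1, also counted among those higher, was at 0.788 FPKM in Mock. Both Folr2 and Slc46a1 were tested only through NanoCa, so their calls are not independent of the limit on low values. Mtr, the methionine synthase, fell from 9.82 to 4.11 FPKM (-1.08, adjusted p = 2.03e-05). Tyms, the thymidylate synthase, fell from 4.51 to 1.05 FPKM (-1.42, adjusted p = 1.77e-05). Sfxn1, the mitochondrial serine transporter, fell from 10.7 to 5.72 FPKM (-0.80, adjusted p = 6.12e-05).

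Of 12 genes of purine synthesis, a pathway that uses formyl units at some steps, 1 was higher (Impdh1, 0.52, adjusted p = 0.00047). Of the others 9 were lower and 2 did not pass, with a median of -0.43 for the 12. Paics fell from 67.5 to 32.9 FPKM (-1.02, adjusted p = 4.14e-06), and Atic, which adds the last formyl group, from 22.8 to 13.3 (-0.73, adjusted p = 4.33e-05). Prps1 and Prps2, which make the ribose phosphate donor, were at -0.77 and -0.76. Of 27 genes that take up, use or feed serine and glycine 16 were tested. Of these 5 were higher, 8 lower and 3 not past the test, and median-of-ratios scaling made it 7 higher and 4 lower. Shares over all tested genes were 21.7% higher and 49.7% lower, or 32.9% and 32.8% with that scaling. Pgk1 (1.36) and Pgam1 (0.70), the glycolytic enzymes on either side of 3-phosphoglycerate, rose, and the transporter Slc38a1 (-0.91) and Serinc5 (-1.25) fell. The serine transporter Slc1a4 was below the limit on low values, with 260 reads in NanoCa and 49 in Mock.

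Among 30 known ATF4 target genes other than the members, with Atf4 itself, 26 were tested, 25 were higher and 0 lower, with a median of 1.05. Asns, asparagine synthetase, rose from 3.09 to 33.0 FPKM (3.07, adjusted p = 5.52e-06) and Trib3 from 1.07 to 15.2 (2.97, adjusted p = 2.25e-06). Ddit3, the stress factor CHOP, rose from 9.62 to 60.1 FPKM (2.53, adjusted p = 1.03e-06), and Ppp1r15a, a phosphatase subunit that ends the response, from 40.9 to 164 (1.98, adjusted p = 1.55e-06). The deposited FPKM of Ppp1r15a was divided by 389 bases, where its longest coding transcript has 2809. On the latter it was at 5.66 FPKM in Mock and 22.7 in NanoCa. Chac1, counted among those higher, was at 0.104 FPKM in Mock and 3.04 in NanoCa. It was tested only through NanoCa, so its call is not independent of the limit on low values. Cebpg, at 19.9 FPKM in Mock and 19.6 in NanoCa, did not pass (adjusted p = 0.59). After median-of-ratios scaling all 26 were called higher. Of 20 proliferation genes 19 were lower and Pcna, the replication clamp, was higher (0.48, adjusted p = 0.000207), with a median of -1.98. Mki67 fell from 54.6 to 5.56 FPKM (-3.08, adjusted p = 6.82e-07). Falls of similar size were measured for the cyclins Ccna2 (-2.95), Ccnb1 (-2.99) and Ccnb2 (-3.12). The members that rose and the members that fell were thus measured in libraries in which both lists also moved, and the part of either in them was not tested.

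**Figure D5:**
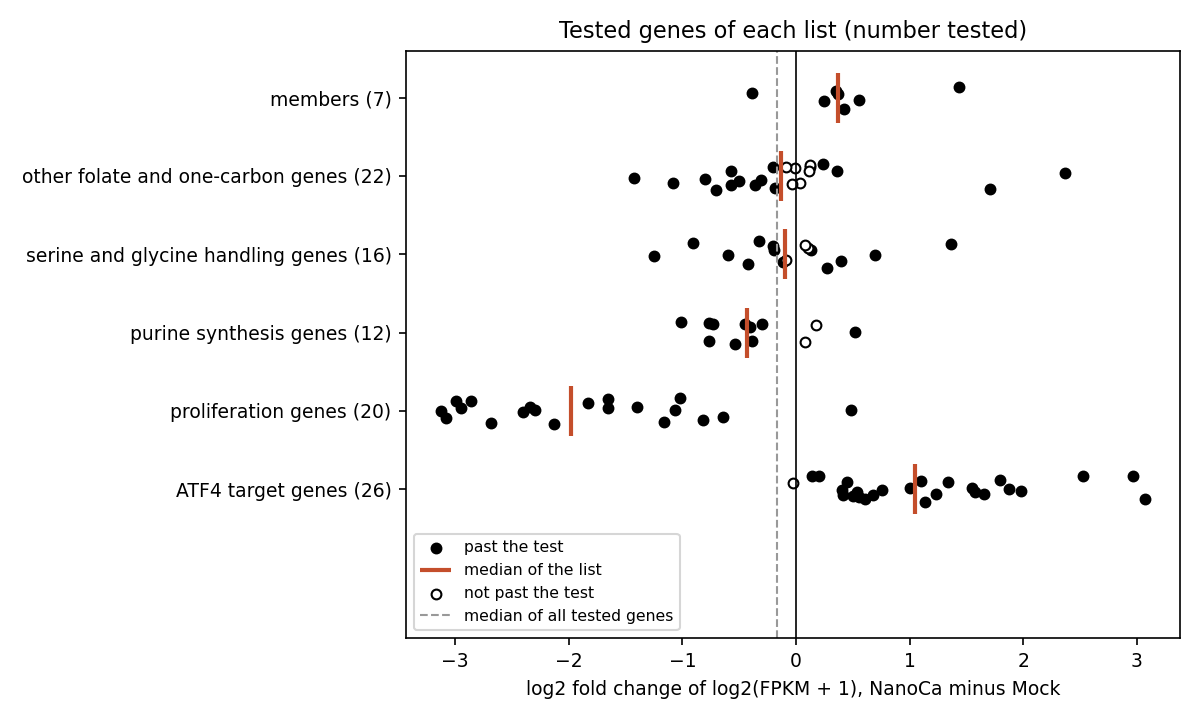
Log2 fold change (x axis, on log2(FPKM + 1), NanoCa minus Mock) of each tested gene among the members and 5 lists, 1 point per gene, filled where the adjusted p was under 0.05, with the number tested in brackets. Red bars are list medians, from -1.98 for proliferation genes to 1.05 for ATF4 targets, with 0.37 for the members, and the dashed line is the median of all tested genes.

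The genes with the pattern closest to that of Mthfd2 over the 4 libraries, by Euclidean distance of centred log2(FPKM + 1), were Gm30329 (0.0269), Pdgfb (0.0388), Slco3a1 (0.044), Slc16a10 (0.0469) and Pou2f2 (0.0476). Their log2 fold changes were 1.40 to 1.45. Pdgfb encodes a platelet-derived growth factor subunit, Slc16a10 a transporter of aromatic amino acids and Pou2f2 a transcription factor of lymphoid and myeloid cells.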

How the data were processed

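Messenger RNA of mouse BMDC was sequenced after library preparation with the SMARTER kit named in the labels' protocols. The deposited table holds FPKM values computed by the authors. The submitters' processing notes name the build GRCm39. No source used here names the aligner, the counter or its strand setting. The columns of replicate 3 were treated as means, since they equalled a constant times the mean of replicates 1 and 2. FPKM is not a count, so limma 3.58.1 (R 4.3.3; lmFit, eBayes with trend, two-sided) was run on log2(FPKM + 1) for 11116 genes with a mean of at least 1 FPKM, with Benjamini-Hochberg adjustment over all of them. Fold changes on that scale understate the change of low genes. Library totals and gene lengths were found from the FPKM steps with GENCODE M21 transcript lengths. All 23929 of 23929 genes with any value gave whole reads within a tolerance of 1e-06, summing to at least 99.99% of the totals. For 1 kilobase, a single read equalled 0.0321 to 0.0439 FPKM. That annotation and the RefSeq promoters are of GRCm38, not of the authors' build. They served for lengths, chromosomes, overlaps and motifs, and only the promoters are given coordinates. The fit was also run on simulated data with known changes, as a check of the code. The spread in that simulation was set, not taken from these libraries, so it gives no error rate for them.

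Members, lists, markers and motifs were chosen with earlier results of these data known. All members are named, and from each list up to 4 genes past the test with the largest change, with Tyms and the paralogs Mthfd2l and Aldh1l1 besides. Some genes that this rule names are not reported here. Impdh1, Sfxn1, Slc46a1, Slc1a4, Chac1, Cebpg, Pcna, Eif2ak1, Eif2ak4 and Nfe2l2, and the individual markers, were named after their values were seen. A symbol on several rows was read from the row with the highest mean. The alternatives were other pseudocounts, filters, scalings and columns, each library left out, a replicate block and limma-voom on recovered reads. Further settings were chosen after seeing the data, limma-voom on genes with at least 10 reads and the length of the longest coding transcript, as were the ratios to Mthfd2l and Aldh1l1.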

Additional observations from a re-analysis of the deposited data

How the results depend on the processing

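Of the 7 tested members, 6 kept their direction and their call at 0.05 under every setting in which they were tested, with Mthfd2 between 1.28 and 1.62 and Mthfd1 between -0.44 and -0.19. Psph kept its direction but lost its call with no filter on low values (0.25, adjusted p = 0.0836), without NanoCa replicate 1 (0.18) and without Mock replicate 2 (0.23). Mthfd1l and Psph could not be tested with a mean FPKM of at least 5. Members lower were 2 with no filter and 2 with limma-voom on genes of at least 10 reads, since Shmt1 then entered. With median-of-ratios scaling 3662 genes were higher and 3651 lower, where the reported counts are 2409 and 5520. That scaling also gave 7 other folate and one-carbon genes higher, 3 purine synthesis genes higher and 4 serine and glycine handling genes lower. Quantile normalization gave 2 purine synthesis genes higher and 5 serine and glycine handling genes lower. Folate genes higher were 1 with a mean FPKM of at least 5, where fewer genes were tested, and 2 to 5 with each library left out in turn, the lowest without NanoCa replicate 2 and without Mock replicate 1. Purine synthesis genes higher were 3 with all 6 columns and 2 with either limma-voom setting. Serine and glycine handling genes higher were 8 with no filter and 9 with limma-voom on genes of at least 10 reads, where more genes were tested. Apart from these the cause was not tested. Leaving out a library leaves 1 in its group, which is then assumed to vary like the other group. The labels give both groups the same replicate numbers, but with 2 pairs nothing shows that these pair the samples (correlation of deviations 0.133). With the replicate block 2 purine synthesis genes were higher, and every other count stayed within 1.5 times.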

Other observations

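Upstream regulators that are known to act on these genes were divided. Of 11 genes 10 were tested, with 4 higher, 4 lower and 2 not past the test (6 higher and 3 lower with median-of-ratios scaling). Among all tested genes 21.7% were higher and 49.7% lower (32.9% and 32.8% with that scaling). Atf4 transcripts rose from 52.1 to 158 FPKM (log2 fold change 1.58, adjusted p = 1.32e-06). Among the kinases of the integrated stress response, Eif2ak2, the sensor of double-stranded RNA that interferon induces, rose from 35.3 to 68.1 FPKM (0.93, adjusted p = 5.11e-05). The other kinases fell, Eif2ak3, of the endoplasmic reticulum, from 11.7 to 6.19 (-0.82, adjusted p = 7.45e-05), the heme-regulated Eif2ak1 from 22.5 to 15.3 (-0.53, adjusted p = 0.0005) and the amino acid sensor Eif2ak4 from 10.1 to 7.22 (-0.43, adjusted p = 0.000438). Myc rose from 3.32 to 6.38 FPKM (0.78, adjusted p = 0.000771). Nfe2l2, which encodes NRF2, did not pass, with 212 FPKM in Mock and 224 in NanoCa (adjusted p = 0.11). Transcript levels do not measure the activity of these proteins.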
